A study of Drosophila melanogaster with 4 samples.

Results

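The clusters described here are the regions of significant LSD1 enrichment on chromosome 4 and on the heterochromatic scaffolds 2LHet, 3LHet, 3RHet and XHet of Drosophila melanogaster. They were taken from the authors' combined list of both ChIP replicates by sequence name alone, with no measured value used. There were 257 of them among the 9853 clusters of that list, 162 on chromosome 4 and 95 on the scaffolds. The scaffolds contributed 38 clusters on 3LHet, 31 on 3RHet, 16 on XHet and 10 on 2LHet. The scaffold 2RHet, with 45 clusters, is not among the sequences described.

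Chromatin immunoprecipitation with sequencing (ChIP-seq) was carried out with an LSD1 antibody, called Q3430, on nuclei of wild-type third-instar larvae of the strain Oregon-R. All samples shared this strain, genotype and stage, and the labels name no treatment. There were 2 ChIP libraries and 2 input libraries, one input for each ChIP library, and each ChIP library has its own list of clusters. The nuclei came from homogenised tissue without a stated selection of cells, so each cluster averages over the cell types in the preparation. Nothing in the labels tells if the larvae of the replicates were collected separately, and their spread may be technical.

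LSD1 is encoded in the fly by Su(var)3-3. It is a demethylase that removes methyl groups associated with active chromatin from a lysine of histone H3, and it is known for its part in the formation of heterochromatin. Chromosome 4 is the smallest autosome. It is rich in repeats and bound along most of its length by heterochromatin protein HP1a, yet it carries expressed genes, and its assembled sequence is numbered from the centromere side. The Het scaffolds hold assembled pieces of the repeat-rich sequence around the centromeres. The comparison sets chromosome 4 beside these scaffolds, and the gene and repeat content of either was not examined here.

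Positions are 1-based and follow FlyBase release 5, the build named in the file headers. The authors gave every cluster 1 value, with no unit named in the files, which is read here as a log2 ratio of ChIP to input, so that larger values stand for stronger enrichment. Values belong to one list and are not set against those of another list as levels. Read numbers are not part of the lists, so the depth behind a cluster is unknown, and a stretch without clusters cannot be told from one where too few reads could be placed. A cluster of the combined list is called found in a replicate where the 2 overlap by at least 1 bp. Over the whole combined list 38.1% of the clusters were found in both replicates, 10.1% in replicate 1 only, 22.7% in replicate 2 only and 29.1% in neither. No gene annotation of this release was used here, so the clusters are given by position and no gene is named. With 2 ChIP libraries an exact two-sided permutation test over samples could not give a p below 0.5 for paired values, so no test was made. Intervals are exact 95% intervals (binomial for shares, Poisson for densities) that cover counting error only, and neighbouring clusters are not independent.

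LSD1 clusters were dense on chromosome 4 and sparse on the scaffolds. In the combined list chromosome 4, of 1.35 Mb, held 119.8 clusters per Mb (interval 102.1 to 139.8), and the scaffolds, of 5.65 Mb together, held 16.8 (interval 13.6 to 20.6). The 4 autosome arms held 82.0 per Mb in the same list. In replicate 1 the densities were 58.4 per Mb on chromosome 4 (79 clusters) and 7.62 on the scaffolds (43 clusters). In replicate 2 they were 93.9 (127 clusters) and 8.15 (46 clusters). The density on chromosome 4 was thus 9.60 ± 2.73 (SD, n = 2) times that on the scaffolds, higher in both replicates. The scaffolds together varied little between the replicates (7.88 ± 0.38 per Mb, SD, n = 2), while chromosome 4 varied more (76.2 ± 25.1). Single scaffolds went different ways: XHet had more clusters in replicate 2, as chromosome 4 did (5 in replicate 1 and 9 in replicate 2), 3LHet had fewer there (25 and 23), 3RHet had 9 and 10, and 2LHet had 4 in each.

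Clusters covered 37.7% of chromosome 4 and 3.85% of the scaffolds in the combined list, against 35.3% of the autosome arms. In replicate 1 they covered 20.2% of chromosome 4 and 1.97% of the scaffolds, and in replicate 2 they covered 27.4% and 1.96%. The arms were covered to 24.2% in replicate 1, above chromosome 4, and to 26.7% in replicate 2, below it, so the order of chromosome 4 and the arms depended on the list. The covered share of chromosome 4 was 12.1 ± 2.7 (SD, n = 2) times that of the scaffolds. The scaffolds were not alike among themselves. XHet, the shortest at 0.204 Mb, was covered to 14.8% in the combined list and held 78.4 clusters per Mb (interval 44.8 to 127.3). On 3RHet the share was 2.52%, on 3LHet 4.11% and on 2LHet 5.14%, with 12.3, 14.9 and 27.1 clusters per Mb. XHet lay between chromosome 4 and the other scaffolds in density and in covered share in each of the 3 lists, from few clusters. It held 24.5 clusters per Mb in replicate 1 (5 clusters, 4.56% covered) and 44.1 in replicate 2 (9 clusters, 8.43% covered).

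Along chromosome 4 the clusters left both ends free. The first cluster ran from 62886 to 66628, with a combined value of 0.71 and values of 0.77 and 0.99 in replicates 1 and 2. The first 62.9 kb of the sequence held no cluster in the combined list, 63.1 kb were free in replicate 1 and 62.9 kb in replicate 2. At the other end the last 79.8 kb were free in the combined list, 114.4 kb in replicate 1 and 101.6 kb in replicate 2. The last combined cluster, from 1270666 to 1272050 with a value of 0.48, was found in neither replicate.

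Chromosome 4 was divided into 10 equal parts, numbered from the centromere side, and part 4 had the largest covered share in each list, followed by part 2. In the combined list each of parts 2 to 9 held 17 to 22 clusters, while part 1 held 5 and part 10 held 6, so the number of clusters varied less between parts 2 and 9 than the covered share did. The share of part 4 was 39.3% in replicate 1 and 51.6% in replicate 2 (mean 45.4 ± 8.7%, SD, n = 2), and 62.1% in the combined list. Part 2 had 39.6 ± 5.0% and part 5 with 33.0 ± 6.0%. The share was 13.7 ± 1.0% in part 6, 26.6 ± 0.8% in part 8 and 3.90 ± 1.13% in part 10, the lowest. Part 6 lay below part 5 and part 8 in each replicate.

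Part 3 of chromosome 4 separated the replicates most. Clusters covered 10.9% of it in replicate 1 and 32.0% in replicate 2, from 5 and 21 clusters, a mean of 21.5 ± 15.0% (SD, n = 2). The combined list followed replicate 2 there, with 22 clusters, of which 13 overlapped replicate 2 only and 6 both. Within it lay a stretch from 276085 to 325105 in which replicate 1 had no cluster over 49.0 kb, while 10 clusters of replicate 2 and 12 of the combined list reached into it. A second stretch of this kind, from 718889 to 792516, was 73.6 kb long, with 5 clusters of replicate 2 and 12 of the combined list.

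**Figure D1:**
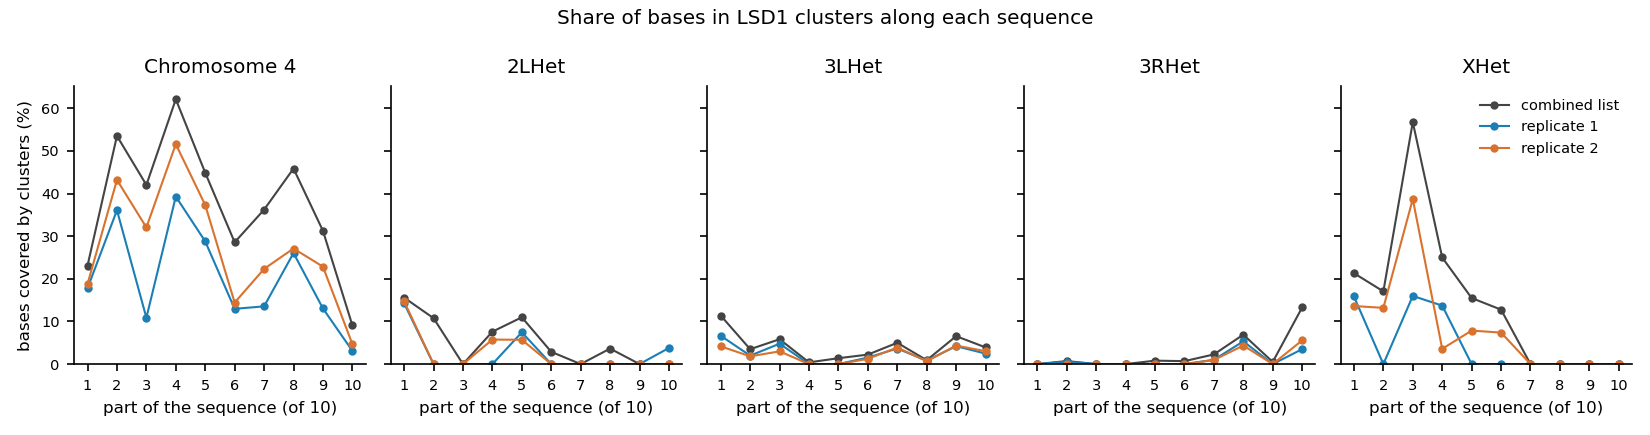
Covered share along each sequence: the vertical axis gives the percentage of bases in clusters and the horizontal axis the part of the sequence, 10 equal parts counted from its first base, for the combined list (grey), replicate 1 (blue) and replicate 2 (orange). On chromosome 4 part 4 reaches 62.1% in the combined list and part 10 only 9.10%, while on 3RHet no part exceeds 13.3%.

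The scaffolds differed in how their clusters were spread. On 3LHet each of the 10 parts held 1 to 7 of the 38 combined clusters, whereas on 3RHet most combined clusters lay in part 10. Of the 31 clusters on 3RHet, 17 (54.8%) lay in part 10 of 10, from 2265757 to 2517507, and the last cluster ended 2.88 kb before the end of the sequence. Replicate 1 had 2 clusters in that part and replicate 2 had 5. Of the 17 combined clusters there, 12 were found in neither replicate, 3 in replicate 2 only and 2 in both. Their values in the combined list ran from 0.33 to 1.10 with a median of 0.50. A further 7 clusters of 3RHet lay in part 8, 4 of them found in both replicates.

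The opposite side of 3RHet looked different. Its first 5 clusters, spread from 439086 to 1663146, had values from 1.53 to 3.57 in the combined list, with a median of 2.31. They were 1001 to 1887 bp wide. Of these 5, 4 were found in neither replicate and 1 in replicate 1 only. The other 26 clusters of 3RHet had values from 0.33 to 1.33 with a median of 0.50, so the ranges did not overlap. This group of 5 was chosen after its values were seen.

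On 3LHet the first cluster began at 203910, and part 1 of the sequence, covered to 11.4% in the combined list, held the longest run of clusters on any scaffold. There 5 clusters less than 1 kb apart formed a run of 28.5 kb from 203910 to 232422. Clusters of replicate 1 covered 52.4% of this run and those of replicate 2 29.6%. No cluster of 3LHet lay between 710943 and 1006165, a gap of 295.2 kb in the combined list. Replicate 1 had no cluster from 710988 to 1395170, a gap of 684.2 kb, and replicate 2 had none over the 787.5 kb from 608206 to 1395717. The combined list placed 5 clusters in the gap of replicate 1.

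XHet carried all its 16 combined clusters in its first 6 parts of 10 and none in the last 88.6 kb, which is 43.4% of the sequence. Part 3 was covered to 56.8% in the combined list, where replicate 1 covered 16.0% and replicate 2 38.7%. On 2LHet, 5 of the 10 combined clusters lay between 29980 and 55014, and the last 92.5 kb held none in the combined list.

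Neighbouring clusters were close on chromosome 4 and far apart on the pooled scaffolds, though less so on XHet. The median gap in the combined list was 1.67 kb on chromosome 4 (161 gaps) and 8.22 kb on the scaffolds (91 gaps), against 2.33 kb on the autosome arms. In replicate 1 the medians were 8.61 kb and 30.5 kb, and in replicate 2 they were 2.88 kb and 20.1 kb. The median gap on chromosome 4 was 0.21 ± 0.10 (SD, n = 2) times that on the scaffolds. XHet lay between chromosome 4 and the pooled scaffolds in each list, with medians of 4.87 kb in the combined list, 12.8 kb in replicate 1 and 6.68 kb in replicate 2. Against the autosome arms the direction depended on the list. The gaps of chromosome 4 were longer in replicate 1, where the arms had a median of 4.73 kb, and shorter in replicate 2, where they had 3.10 kb.

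Long gaps set chromosome 4 and the pooled scaffolds further apart than the medians do. No gap of the combined list on chromosome 4 exceeded 50 kb, while 22 of the 91 on the scaffolds did. Of these, 12 were on 3LHet, 8 on 3RHet and 2 on 2LHet. XHet had none, and its longest gap was 16.1 kb. In replicate 1, 2 of the 78 gaps on chromosome 4 and 15 of the 39 on the scaffolds exceeded 50 kb. In replicate 2 none of the 126 and 12 of the 42 did. The autosome arms had 232 of 7919 in the combined list, 363 of 4560 in replicate 1 and 305 of 6488 in replicate 2. In the combined list the longest gap on chromosome 4, of 40.6 kb, ran from 107311 to 147931 and held no cluster of either replicate. The next ran from 764809 to 792745 (27.9 kb) and from 349867 to 376263 (26.4 kb). Each held only the edge of 1 replicate cluster that overlapped a combined cluster beside the gap. The longest on the scaffolds were both on 3RHet, 706.1 kb from 440881 to 1146999 and 312.9 kb from 1348381 to 1661259, without a cluster in either replicate. Next came the gap of 3LHet described above.

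At the short end, 57 of the 161 gaps on chromosome 4 (35.4%) and 16 of the 91 on the scaffolds (17.6%) were under 1 kb in the combined list, against 32.6% on the autosome arms. The replicates differed in this. In replicate 1 it was 7 of 78 (8.97%) and 4 of 39 (10.3%), against 22.0% on the arms. In replicate 2 it was 34 of 126 (27.0%) and 4 of 42 (9.52%), against 27.8%. Joining clusters less than 1 kb apart gathered 91 of the 162 clusters of chromosome 4 (56.2%) into 34 runs of 2 or more. For the scaffolds it gathered 28 of 95 (29.5%) into 12 runs. On the autosome arms it gathered 52.3% of the clusters, near the share on chromosome 4. The longest run of chromosome 4, from 241310 to 268796, was made of 5 clusters over 27.5 kb. Replicate 1 covered 59.6% of it and replicate 2 76.1%. A run of 26.5 kb from 501636 to 528092 was covered to 94.1% and 96.2%, and the run that follows it, from 529254 to 550456, to 83.5% and 91.4%.

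**Figure D2:**
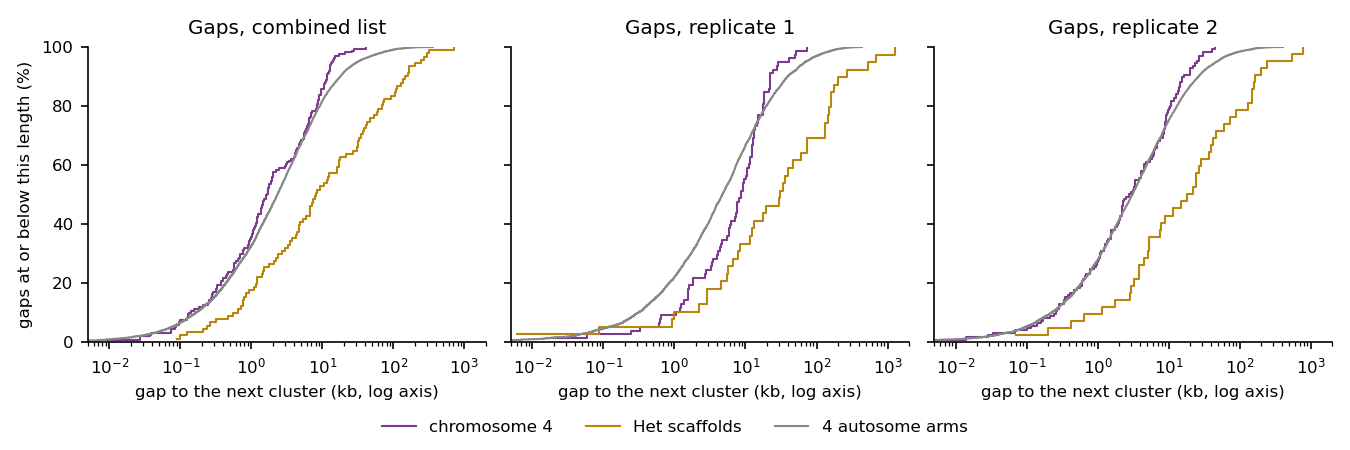
Spacing of clusters: each line gives the percentage of gaps (vertical axis) at or below a length in kb (horizontal axis, log scale), for chromosome 4, the 4 Het scaffolds and the 4 autosome arms, in the combined list and in each replicate. The line of the scaffolds lies to the right over most of its length in each panel, with medians of 8.22, 30.5 and 20.1 kb, against 1.67, 8.61 and 2.88 kb on chromosome 4.

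Clusters of chromosome 4 were wider than those of the pooled scaffolds in the combined list, but hardly so in the replicates, and not than those of every scaffold. The median width in the combined list was 2287 bp on chromosome 4 (quartiles 1494 and 3810 bp) and 1653 bp on the scaffolds (quartiles 1187 and 2840 bp). The autosome arms had a median of 1973 bp. In replicate 1 the medians were 2513 and 2313 bp, in replicate 2 2260 and 2230 bp, a ratio of 1.05 ± 0.05 (SD, n = 2). On 3LHet, the scaffold with the most clusters, the median was 2306 bp in the combined list, 2370 bp in replicate 1 and 2326 bp in replicate 2, so it was above that of chromosome 4 in the combined list and in replicate 2. On 3RHet it was 1577 bp in the combined list and 2526 bp in replicate 1, on XHet 1555 and 1643 bp, and on 2LHet 1483 and 2286 bp. The combined list holds clusters down to 1001 bp, while the narrowest cluster of either replicate list is 1301 bp. Clusters under that width made up 28 of the 162 on chromosome 4 (17.3%) and 30 of the 95 on the scaffolds (31.6%), against 22.0% on the arms.

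Broad clusters were few on both. In the combined list 6 clusters of chromosome 4 (3.70%) and 1 of the scaffolds (1.05%) were wider than 10 kb, against 9.57% on the autosome arms. They held 15.7% of the covered bases of chromosome 4, 5.55% of those of the scaffolds and 45.9% of those of the arms. The upper quartile of width was 3810 bp on chromosome 4 and 3981 bp on the arms.

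The widest cluster of chromosome 4 found in both replicates spanned 18115 bp from 509978 to 528092, with a combined value of 0.93 and values of 0.96 and 0.97 in replicates 1 and 2. It was covered to 91.4% by 2 clusters of replicate 1 and to 99.2% by 1 of replicate 2. The next widest, 14121 bp from 529254 to 543374, had 0.86 in the combined list, with 0.93 and 0.88 in the replicates, and was covered to 92.4% and 100.0%. A cluster of 13235 bp from 245394 to 258628 had 0.92, 1.12 and 0.87. It was covered to 92.9% in replicate 1 and to 98.1% in replicate 2, by 2 clusters in each. Nearer the centromere side, a cluster of 12241 bp from 72644 to 84884 had 1.09, 1.32 and 1.04, and one of 11579 bp from 86020 to 97598 had 1.18, 1.25 and 1.30. A sixth over 10 kb, from 147932 to 158514, was split into 3 pieces in each replicate.

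The widest scaffold cluster found in both, 12079 bp on 3LHet from 207420 to 219498, was held together in the combined list only. Replicate 1 covered 83.3% of it in 3 pieces and replicate 2 36.2% in 2 pieces. The next, 7665 bp on 3RHet from 2469708 to 2477372, was a single cluster in each replicate, covered to 94.9% and 98.5%, with a combined value of 1.09 and 1.30 and 0.95 in replicates 1 and 2. A cluster of 6547 bp on 3LHet from 220048 to 226594 was covered to 31.3% and 25.1%. One of 6331 bp on XHet from 44020 to 50350 was covered to 38.3% and 83.6%, and one of 5385 bp on 3LHet from 2189344 to 2194728 to 63.5% and 77.4%. Of these 5 wide clusters, the one on 3RHet was the only one covered to at least 90% in both replicates.

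The clusters of chromosome 4 and of the scaffolds were found in both replicates about as often, but the others were distributed differently. Of the 162 clusters of chromosome 4, 60 (37.0%, interval 29.6 to 45.0) overlapped a cluster of each replicate by at least 1 bp, and of the 95 on the scaffolds 32 did (33.7%, interval 24.3 to 44.1). Over the whole combined list this share was 38.1%, so both lie near it. A further 50 clusters of chromosome 4 (30.9%, interval 23.9 to 38.6) overlapped replicate 2 only, against 10 of the scaffolds (10.5%, interval 5.16 to 18.5) and 22.7% of the whole list. Replicate 1 alone was overlapped by 14 clusters of chromosome 4 (8.64%) and 6 of the scaffolds (6.32%), against 10.1% of the whole list. Neither replicate was overlapped by 38 clusters of chromosome 4 (23.5%, interval 17.2 to 30.7) and 47 of the scaffolds (49.5%, interval 39.1 to 59.9), against 29.1% of the whole list.

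Counted for each replicate, 74 clusters of chromosome 4 (45.7%) overlapped replicate 1 and 110 (67.9%) replicate 2, against 48.2% and 60.9% of the whole list. The counts for the scaffolds were 38 (40.0%) and 42 (44.2%). The intervals of these shares were 30.1 to 50.6 and 34.0 to 54.8 for the scaffolds, and 37.8 to 53.7 and 60.1 to 75.0 for chromosome 4. The same clusters were set against both replicates, so these intervals do not measure the difference between the replicates, which was not tested. A list with more clusters has more to overlap, and on chromosome 4 replicate 2 had 127 clusters, against 79 in replicate 1. Whether this bears on the larger share for replicate 2 there was not tested. Over the whole list replicate 2 also had the larger share.

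**Figure D3:**
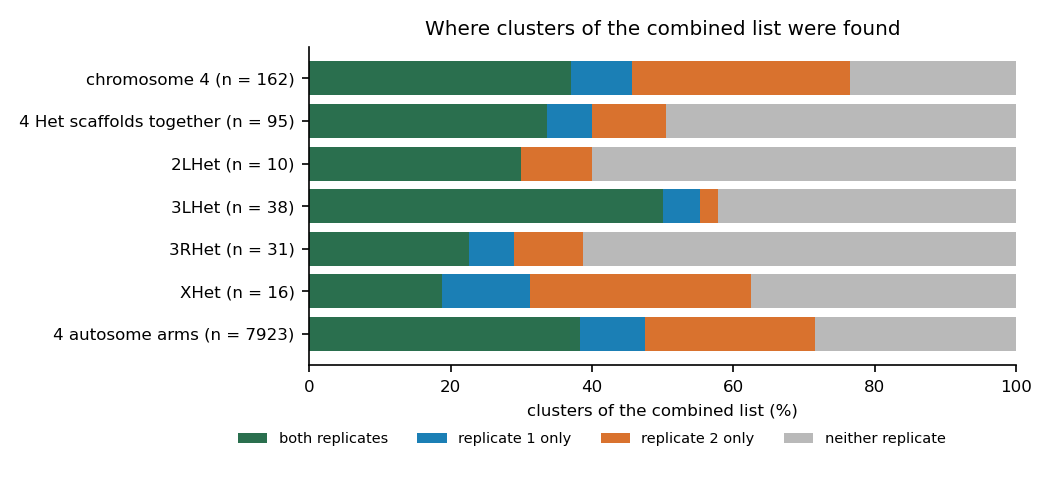
Overlap of combined clusters with the replicate lists: each bar divides the clusters of a sequence (n beside its name) into the percentage found in both replicates, in replicate 1 only, in replicate 2 only and in neither, by an overlap of at least 1 bp. The orange part is 30.9% on chromosome 4 and 10.5% on the 4 scaffolds together, and the grey part 23.5% and 49.5%.

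Among the scaffolds, 3LHet had the largest share found in both, 19 of 38 clusters (50.0%, interval 33.4 to 66.6). On 3RHet it was 7 of 31 (22.6%, interval 9.59 to 41.1), on XHet 3 of 16 (18.8%) and on 2LHet 3 of 10 (30.0%). The clusters of 3RHet were found in neither replicate in 19 cases (61.3%). On XHet, 5 clusters (31.2%) were found in replicate 2 only, close to the share on chromosome 4 but from few clusters. With these numbers the intervals of all 4 scaffolds overlap.

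Width went with being found, in part through the rule itself, since a wider cluster has more bases that can meet a replicate cluster by 1 bp. A cluster found in both could still be covered to a small share, as that of 3LHet from 220048 (31.3% and 25.1%). On chromosome 4, all 21 clusters of at least 5 kb were found in both replicates, as were all 6 on the scaffolds and 97.8% of the 1557 on the autosome arms. Between 2.5 and 5 kb the share was 32 of 53 on chromosome 4 (60.4%, interval 46.0 to 73.5) and 21 of 24 on the scaffolds (87.5%, interval 67.6 to 97.3), against 64.3% on the arms. Between 1301 bp and 2.5 kb it was 6 of 60 (10.0%) and 5 of 35 (14.3%), against 17.1% on the arms. Below 1301 bp it was 1 of 28 and 0 of 30, where a count of 0 allows a share of up to 11.6% by the exact interval. The 1 exception, on chromosome 4 from 376264 to 377546, was reached by 2.34% of its length by a cluster of replicate 1 that lay mainly under its neighbour. In the class from 1301 bp to 2.5 kb, 30 of the 60 clusters of chromosome 4 (50.0%) were found in replicate 2 only, and 19 of the 35 of the scaffolds (54.3%) in neither.

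In the other direction, nearly all replicate clusters on these sequences entered the combined list. On chromosome 4 all 79 clusters of replicate 1 and 124 of the 127 of replicate 2 did. On the scaffolds 41 of 43 and 45 of 46 did. Of the 6 clusters left out, 5 were 1330 to 1494 bp wide and 1 was 2414 bp wide, and none overlapped the other replicate. Those of replicate 2 began at 305717, 1087322 and 1107584 on chromosome 4 and at 1744583 on 3LHet. Those of replicate 1 began at 702207 on 3LHet and at 348478 on 2LHet. Set directly against each other, 65 of the 79 clusters of replicate 1 on chromosome 4 (82.3%) overlapped replicate 2, and 72 of the 127 of replicate 2 (56.7%) overlapped replicate 1. Scaffold counts were 32 of 43 (74.4%) and 32 of 46 (69.6%). Over all sequences the shares were 80.9% and 66.3%.

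The clusters found in both replicates were covered to a similar extent in each. On chromosome 4 their median covered share was 83.7% in replicate 1 and 86.1% in replicate 2 (60 clusters), and on the scaffolds 87.8% and 81.9% (32 clusters). At least 90% was covered in both replicates for 10 of the 60 and 6 of the 32, against 577 of 3038 on the autosome arms. Less than 50% was covered in one or other replicate for 12 of the 60 and 4 of the 32, against 479 of the 3038. Clusters of chromosome 4 were split into 2 or more pieces in 15 cases in replicate 2 and 6 in replicate 1, those of the scaffolds in 3 and 2. Of the 3038 on the arms, 945 were split in replicate 2 and 640 in replicate 1.

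The scaffolds had larger values than chromosome 4 in the combined list. The median was 0.69 on the scaffolds (range 0.12 to 3.57) and 0.54 on chromosome 4 (range 0.20 to 2.06), against 0.42 on the autosome arms. Among clusters found in both replicates the medians were 0.88 on the scaffolds, 0.71 on chromosome 4 and 0.56 on the arms. Clusters found in neither had medians of 0.56, 0.48 and 0.38. By sequence the median was 0.79 on 3LHet, 0.63 on 2LHet, 0.60 on XHet and 0.56 on 3RHet.

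The largest values belonged to different kinds of clusters on chromosome 4 and on the scaffolds. Of the 10 largest on chromosome 4, 9 were found in both replicates and their median width was 5905 bp. Of the 10 largest on the scaffolds, 1 was found in both and 8 in neither, with a median width of 1358 bp. On the autosome arms all 10 were found in neither. At the same share of each list, its top 10% by value, 15 of 17 on chromosome 4 (88.2%) and 722 of 793 on the arms (91.0%) were found in both, against 1 of 10 on the scaffolds. Values above 2 were held by 1 cluster of chromosome 4 (0.62%), 6 of the scaffolds (6.32%) and 0.16% of the arms. None of these was found in both replicates, and on the scaffolds they were 1001 to 1887 bp wide.

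**Figure D4:**
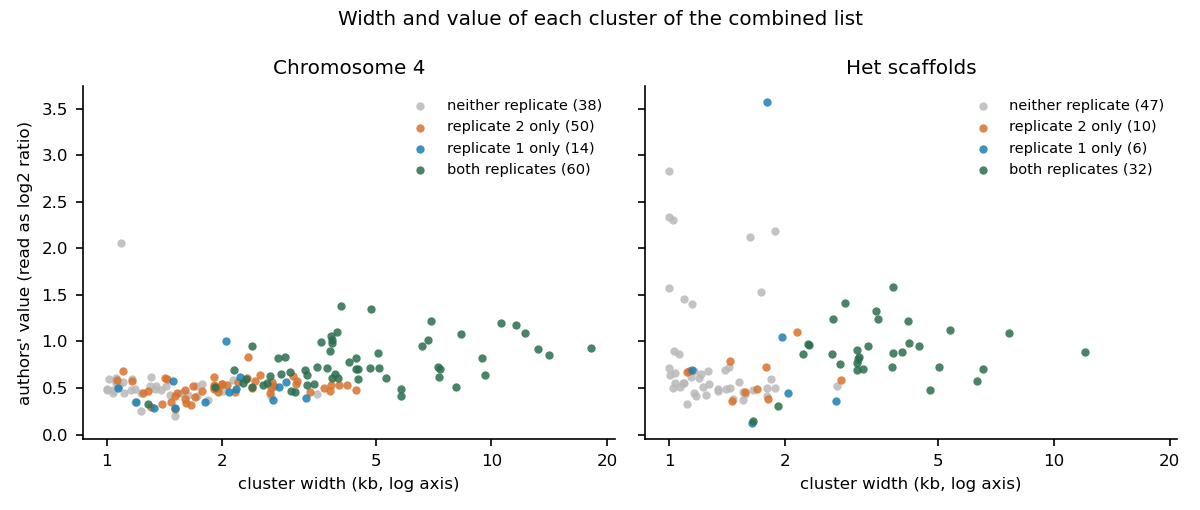
Width and value of every cluster of the combined list on chromosome 4 (162 clusters) and on the Het scaffolds (95 clusters): the horizontal axis gives the width in kb on a log scale and the vertical axis the authors' value, read as a log2 ratio, with colours for the replicates in which each was found. On the scaffolds the 6 points above 2 are narrow and none is green, while on chromosome 4 a single narrow grey point lies above 2.

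Among the clusters of chromosome 4 found in both replicates, the largest value was on the stretch from 211690 to 215762, of 4073 bp, with a combined value of 1.38 and 1.65 and 1.35 in replicates 1 and 2. The cluster from 463924 to 468780, of 4857 bp, had 1.35, 1.60 and 1.49, in the same order. That from 573528 to 580480, of 6953 bp, had 1.22, 1.21 and 1.29, and it was covered to 97.4% and 95.4%. Then followed the clusters from 147932 to 158514 with 1.20, 1.34 and 1.08 and from 86020 to 97598, described above. Of these 5 sites, the first had the largest value of chromosome 4 in replicate 1 and the second in replicate 2. All 5 lay in parts 1 to 5 of the chromosome.

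The cluster of chromosome 4 with the largest value of all, 2.06 from 810800 to 811892, was found in neither replicate and was 1093 bp wide. The next largest of that kind had 0.61 each, from 869350 to 870650 and from 669386 to 670442. The first thus stood far above every other cluster of chromosome 4 found in neither replicate.

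Among the clusters of the scaffolds found in both replicates, the largest value was on 2LHet from 29980 to 33802, of 3823 bp, with a combined value of 1.58 and 1.55 and 1.70 in replicates 1 and 2. It was the first cluster of 2LHet and lay 99 bp before a cluster of 1925 bp with only 0.30, 0.46 and 0.32, which was also found in both. On 3LHet the cluster from 458206 to 461080 had 1.41, 1.56 and 1.45 and stood 112.8 kb from the next. On 3RHet the cluster from 1767608 to 1771054 had 1.33, 2.03 and 1.04, and that from 1822536 to 1825200 had 1.24, 1.38 and 1.22. Another on 3LHet, from 2241684 to 2245182, had 1.25, 1.36 and 1.33.

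Clusters of the scaffolds found in neither replicate reached 2.83 on 3LHet from 1257734 to 1258734, and on 3RHet 2.34 (1147000 to 1148000) and 2.31 (1179288 to 1180312). Their widths were 1001, 1001 and 1025 bp. The cluster of 3RHet from 439086 to 440880, with 3.57 the largest of all combined clusters on any sequence, overlapped replicate 1 (2.98) and not replicate 2.

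XHet did not share these high values. Its 16 clusters had values from 0.15 to 0.90 in the combined list, and none was above 1, against 20 of the 95 scaffold clusters. Its first cluster, from 3688 to 6888, had a combined value of 0.71 and 0.56 and 1.02 in replicates 1 and 2. Its last, from 114110 to 115550, had 0.79 in the combined list and 1.24 in replicate 2, with no cluster in replicate 1. The cluster from 60420 to 62072 had the lowest value of XHet, 0.15, with 0.39 and 0.22 in the replicates, and was still found in both.

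Across the clusters found in both replicates, the values of the replicates went together. Pearson's r was 0.61 and Spearman's rho 0.55 on chromosome 4 (60 clusters), 0.69 and 0.64 on the scaffolds (32 clusters), and 0.73 and 0.67 on the autosome arms (3038 clusters). These describe clusters of the same 2 libraries, chosen for overlapping in both, and each replicate's value is that of its cluster with the largest overlap. Width went with value on chromosome 4 in the combined list (Spearman's rho of 0.54 across 162 clusters), as on the arms (0.54), and less on the pooled scaffolds (0.21 across 95). Each single scaffold lay below the pooled value there, with 0.16 on 3LHet, 0.15 on 3RHet, 0.05 on 2LHet and -0.31 on XHet, the last from 16 clusters. In the replicates rho on chromosome 4 was 0.66 and 0.61, and on the pooled scaffolds 0.43 and 0.29.

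**Figure D5:**
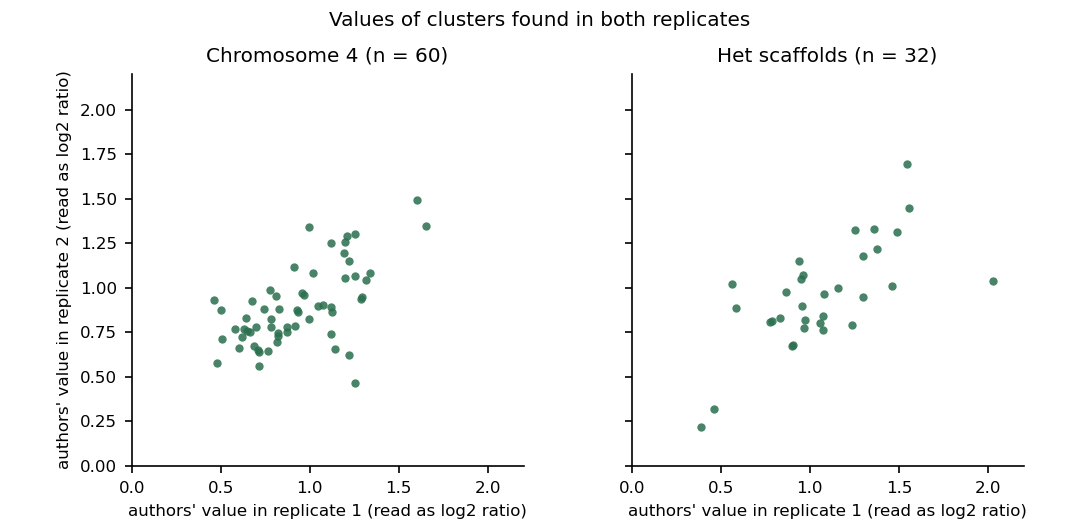
Values of clusters found in both replicates: each point is a cluster of the combined list on chromosome 4 (n = 60) or on the Het scaffolds (n = 32), with the authors' value of the overlapping cluster in replicate 1 on the horizontal and in replicate 2 on the vertical axis, both read as log2 ratios. The points rise together with r of 0.61 and 0.69, and the scaffold point with 2.03 in replicate 1 and 1.04 in replicate 2 is the one from 1767608 on 3RHet.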

How the data were processed

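Reads were processed by the authors with tools that include Bowtie 0.12.7, per the submitters' processing notes, and the build is FlyBase release 5, per the file headers. How clusters were called and how replicates were joined is not given in the sources used here, nor is any threshold. The authors deposited 1 value per cluster without naming its unit, and the deposited value is assumed to be a log2 ratio of ChIP to input. The combined list of the replicate set has even start and end coordinates in all 9853 clusters, the replicate lists in 24.1% and 24.4% of theirs.

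From the lists, overlap of at least 1 bp, widths, gaps, densities and covered shares were computed with sequence lengths from the file headers (Python 3.11.15, numpy 2.4.6, pandas 2.3.3, scipy 1.17.1, matplotlib 3.10.9). The overlap search was tested on simulated data. Clusters were named by rule: the 5 largest values and 5 widest found in both replicates, the 3 largest found in neither, the 3 longest gaps, and the first and last cluster of each sequence. Others named were chosen after their values were seen. XHet exceeded 15 clusters, so it is described by these. The members and rules were chosen with earlier results of these data known. Alternatives covered the overlap rule, value, width, merging, each replicate and each scaffold. No genome of release 5 was used here, so no gene or sequence is given. A gene table of release 6 was not used.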

Additional observations from a re-analysis of the deposited data

How the results depend on the processing

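The share of clusters found in both replicates fell on chromosome 4 from 37.0% to 25.9% under the rule of 50% reciprocal overlap, and overlap with 1 replicate alone gave 45.7% to 67.9%. On the Het scaffolds it rose from 33.7% to 49.2% among clusters at least as wide as the narrowest replicate cluster, where fewer clusters enter, fell to 22.8% without 3LHet, and was 40.0% to 44.2% with 1 replicate alone. Chromosome 4 had 44.0% with the same width limit, and the scaffolds had 28.4% with reciprocal overlap, so the scaffolds were higher under both. At 1 bp and in the upper 50% by value (42.3% and 36.1%) chromosome 4 was higher, so the order depended on the rule. The ratio of chromosome 4 to the scaffolds was on the same side of 1 in 32 of 32 alternatives over width, density, covered share and gap. These alternatives reuse the same clusters and are not separate tests. None set chromosome 4 against 1 scaffold alone, where the median width of 3LHet was above that of chromosome 4 in the combined list (2306 and 2287 bp). For median width, 1.38 in the combined list, the ratio to the pooled scaffolds was 1.47 in the upper 50% by value and 2.08 after merging. It was 1.45 without 3LHet, 1.27 without XHet and 1.01 to 1.09 in the single replicates. For density, 7.12, the single replicates gave 7.67 to 11.5, for covered share, 9.77, they gave 10.2 to 14.0, and for the median gap, 0.20, they gave 0.14 to 0.28. Merging moved the gap ratio to 0.30, and leaving out XHet gave 0.12, which is within 1 SD of 2 replicates but a change of over 1.5 times. Each scaffold left out other than XHet for the share in both was an alternative chosen after seeing the data. No paired analysis was possible because, between ChIP and input, the groups that share replicate numbers, no cluster list of the inputs was used here. The ratios of chromosome 4 to the scaffolds are taken within each replicate and carry no test. What depth limits could not be assessed, as the lists hold no read numbers.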
